A study of Mus musculus with 6 samples.

Results

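The genes of mitosis and the G2/M transition were followed in mouse colonic organoids with 2 groups of 3 libraries. The set holds 58 genes, chosen by symbol for their known roles as cyclins, mitotic kinases, kinesins, kinetochore, checkpoint, condensin and cytokinesis factors. Earlier results of these data were known when the set was chosen. All 58 were among the 25067 rows of the deposited values, and all 58 were tested, with 13210 rows tested in all. Organoids were grown from colon crypts of C57BL/6 mice 8 weeks old. Every library had the same genotype, Prkcif/fPrkczf/f;Villin-CreERT2, in which the genes of the atypical protein kinases C are floxed and the Villin promoter drives a tamoxifen-inducible Cre in intestinal epithelial cells. The vehicle group was given ethanol and the 4-OHT group 4-OH-Tamoxifen at passage, and RNA was taken after 3 days. The vehicle libraries are called wild type in the labels, although they carry the same alleles as the 4-OHT libraries. No library analysed here had 4-OHT without Cre or without floxed alleles, so loss of the kinases, Cre activity and 4-OHT itself cannot be told apart. The labels do not say whether libraries came from separate cultures or mice, and the p-values then measure only the spread between these libraries, which may be technical.

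A cell enters mitosis when Cdk1 bound to cyclin B becomes active. Condensin then compacts the chromosomes, kinesins and other motors build the spindle, and kinetochores attach each chromosome to it. A checkpoint holds anaphase back until all kinetochores are attached. Cdc20 then activates the anaphase-promoting complex, which destroys securin and cyclin B, and separase cuts the cohesin that joins sister chromatids. The messenger RNAs of most of these proteins rise in G2. Their promoters often carry CCAAT boxes, which NF-Y binds, and cell cycle genes homology regions (CHR), which the MuvB complex binds together with B-Myb and Foxm1 in dividing cells and with repressors in resting cells. In the colon, dividing cells lie in the lower crypt, and differentiated cells have mostly left the cycle.

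The libraries held between 15804709 and 26957612 reads assigned to rows. Values are normalized counts, the reads of a gene divided by 1 size factor per library. Prkcz was at 880, 904 and 954 normalized counts in the vehicle libraries and at 287, 265 and 290 in the 4-OHT libraries. Prkci was at 3603, 3526 and 3430 in vehicle and at 2869, 3105 and 3089 with 4-OHT, a log2 fold change of -0.22 (standard error, SE, 0.048, limma-trend adjusted p = 0.00081). Reads along the floxed exons were not analysed here. Epithelial marker counts were high in every library, with 7 summed markers at 385124 to 396798 normalized counts in vehicle and 520107 to 563891 with 4-OHT. Of these 7 markers 6 were called higher and 1, Cdx2, lower, against 22.7% and 21% of all tested rows. The 4-OHT replicates 2 and 3 stood apart in transcripts of other cell types: 8 Paneth cell and ileal markers summed to 1068 and 797 there, against 53.7 in 4-OHT replicate 1 and 57.8 to 82.3 in vehicle. Of these 8 markers 7 were called higher, and Mptx2, a Paneth cell gene, was at 0 reads in vehicle. The immunoglobulin heavy chain gene Igha, a plasma cell marker, was at 0 reads in all vehicle libraries, at 1 in 4-OHT replicate 1, at 135 in replicate 2 and at 40 in replicate 3. Summed fibroblast markers reached 195 in 4-OHT replicate 3, against at most 20.5 in the other libraries, and summed smooth muscle markers were at 14.5, 65.3 and 164 with 4-OHT and 2.8 to 13.3 in vehicle. The plasma cell marker Mzb1 had 0 reads in all 6 libraries. Results are given without 4-OHT replicates 2 and 3 as well.

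Mitotic genes fell together in 4-OHT organoids. Of the 58 members, 57 fell past an adjusted p of 0.05 in the fit over all rows, and the remaining one, Pttg1, did not pass it. Genes past this threshold are said to be called. By comparison, 21% of all tested rows were called lower and 22.7% higher. In limma-trend 0 members were called higher, 0 were higher at an unadjusted p under 0.05, and edgeR and DESeq2 also gave 0. By more than 0.5 on the log2 scale, 50 members fell, where 7.51% of all tested rows did. All 3 values with 4-OHT lay below all 3 vehicle values for 57 members, as they did for 25.3% of all tested rows. The median log2 fold change of the members was -0.69, with quartiles at -0.79 and -0.56, whereas the median over all tested rows was -0.01, with quartiles at -0.22 and 0.20. The extremes were Mki67 at -1.02 and Pttg1 at 0.15. The smallest adjusted p among the members was 2.1e-11, for Top2a. In bulk RNA, fewer cells in mitosis and less mitotic RNA in each cell cannot be told apart.

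Each 4-OHT library showed the fall. Relative to the vehicle mean, the median member was at -0.59 in replicate 1, at -0.76 in replicate 2 and at -0.67 in replicate 3 on the log2 scale, while the vehicle libraries were at -0.03, -0.01 and 0.04. Of all vehicle reads, 0.567%, 0.575% and 0.594% came from the members, and this share was 0.363%, 0.32% and 0.346% with 4-OHT. Of the 58 members, 38 had their highest 4-OHT value in replicate 1, and 39 had their lowest in replicate 2. Without 4-OHT replicates 2 and 3, the median of the members was -0.59. This rests on 1 4-OHT library, so no spread within that group was measured. Replicate 1, in which the Paneth and ileal markers were at the vehicle level, thus had the smallest fall of the 3, in the same direction. The stem cell marker list (Lgr5, Ascl2, Smoc2, Olfm4, Axin2, Rnf43) moved along with the members, from 10816 to 11095 summed normalized counts in vehicle to 8027 to 8711 with 4-OHT. Of its 5 tested genes 4 were called lower, where 21% of all tested rows were called lower and 22.7% higher. Markers of differentiated cells were called higher in 4 of 5 tested cases for enteroendocrine cells, summing to 580 to 834 in vehicle and 940 to 1112 with 4-OHT. For goblet cells 4 of 6 markers were higher and 1 lower, with overlapping sums of 6187 to 7904 and 6707 to 7507. The 6 colonocyte markers, 2 of them higher, summed to 59973 to 65712 and 64349 to 68722. Of 3 tested tuft cell markers 1 was higher and 1 lower, and the list had overlapping sums of 195 to 276 and 252 to 278. The part of these lists in the result was not tested.

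**Figure D1:**
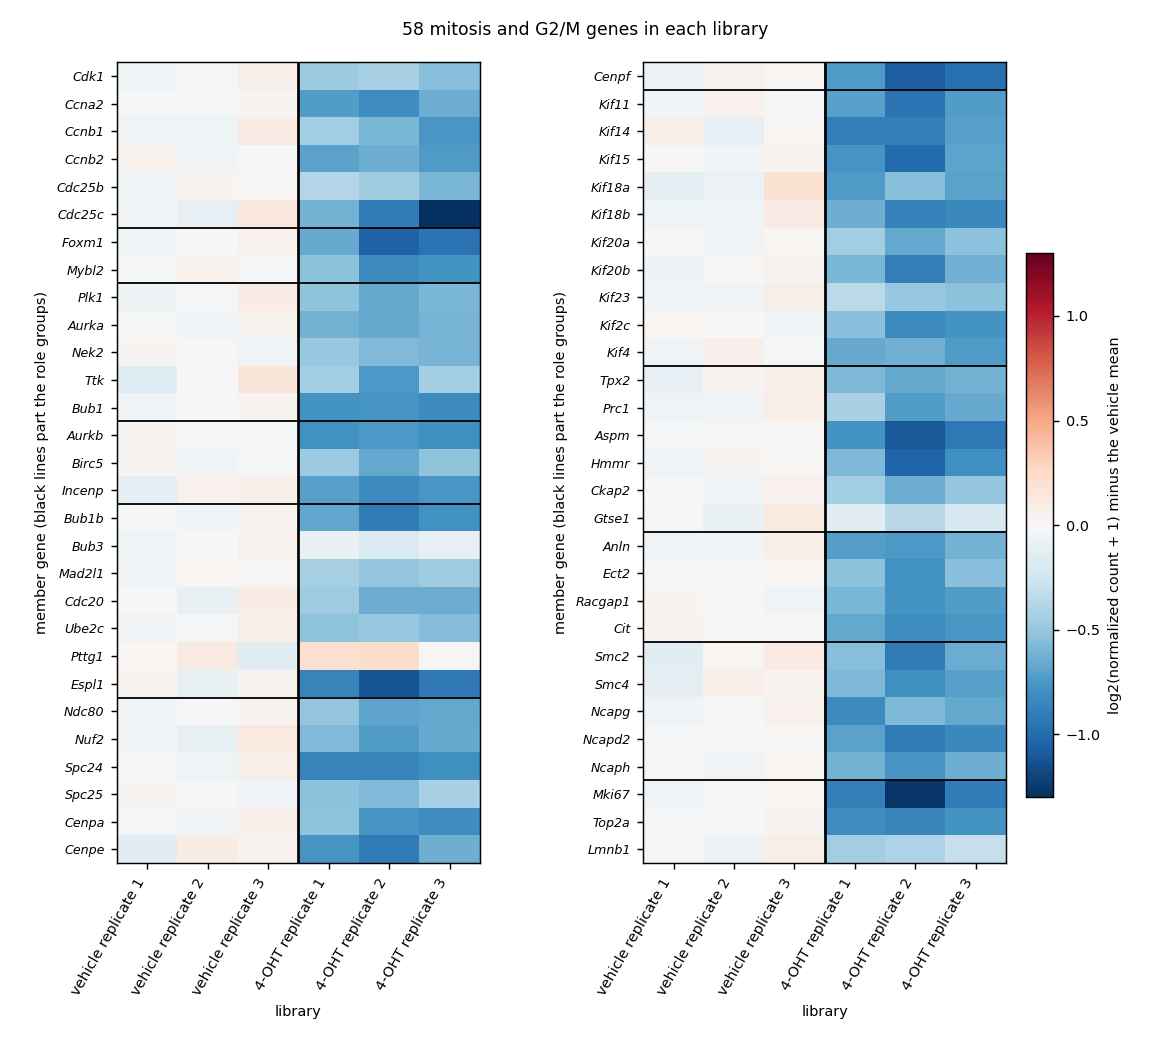
Heat map of the 58 members (rows, black lines part the role groups) in the 6 libraries (columns), in colour by the log2 of the normalized count plus 1 minus its vehicle mean. The 4-OHT columns are blue for nearly all members, palest for Bub3 and Gtse1, while Pttg1 is pale red in 4-OHT replicates 1 and 2.

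Promoter sequence was compared because NF-Y and MuvB sites are the textbook feature of this gene class and played no part in choosing the members. RefSeq promoter windows of 300 bases (250 before and 50 after the annotated start, build GRCm38.p6) were found for 48 members, 52 windows in all. The deposited values were made on another build per the submitters' processing notes, so the windows describe sequence only and no coordinates were carried over. No window was used for Aurkb, Ccna2, Cdc25c, Foxm1, Incenp, Kif20a, Lmnb1, Smc4, Spc24 and Tpx2. The letters CCAAT, read as ATTGG when they are on the other strand, stood in 75% of member windows and in 37.4% of all 32851 windows. The CHR letters TTTGAA, read as TTCAAA when on the other strand, stood in 71.2% of member windows and in 17.9% of all windows, and the variant TTCGAA, which reads the same on both strands, in 7.69% and 1.56%. Both kinds of match occurred together in 65.4% of member windows, in 7.52% of all windows and in 5.83% of the windows of tested rows. Matches of CCAAT and of a CHR can share at most 1 base. A match is a run of letters, and binding was not measured.

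The windows of the 4 members with the largest falls among those holding both kinds of match are shown 5′ to 3′, with every match of the CCAAT and CHR letters, on either strand, in capitals. They belong to Mki67 (chr7:135716330-135716629, minus strand), Espl1 (chr15:102296043-102296342, plus strand), Aspm (chr1:139454523-139454822, plus strand) and Cenpf (chr1:189688037-189688336, minus strand).
Mki67: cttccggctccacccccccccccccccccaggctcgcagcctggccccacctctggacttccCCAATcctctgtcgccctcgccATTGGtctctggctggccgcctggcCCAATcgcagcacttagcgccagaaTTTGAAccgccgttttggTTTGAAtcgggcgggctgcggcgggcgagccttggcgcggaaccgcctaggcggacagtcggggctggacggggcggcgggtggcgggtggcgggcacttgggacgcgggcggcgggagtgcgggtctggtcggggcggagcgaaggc
Espl1: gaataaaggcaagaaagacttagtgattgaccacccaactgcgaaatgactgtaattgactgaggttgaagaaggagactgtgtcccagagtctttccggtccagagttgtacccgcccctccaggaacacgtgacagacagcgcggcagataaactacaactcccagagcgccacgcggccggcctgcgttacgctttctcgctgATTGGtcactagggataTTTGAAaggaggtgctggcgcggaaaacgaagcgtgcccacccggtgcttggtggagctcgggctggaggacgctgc
Aspm: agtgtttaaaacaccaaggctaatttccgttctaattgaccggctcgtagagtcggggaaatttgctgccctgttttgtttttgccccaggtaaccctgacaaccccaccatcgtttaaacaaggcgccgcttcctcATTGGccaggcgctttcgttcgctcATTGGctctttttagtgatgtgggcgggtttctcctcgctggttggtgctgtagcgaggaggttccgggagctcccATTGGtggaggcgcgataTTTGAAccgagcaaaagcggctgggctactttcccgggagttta
Cenpf: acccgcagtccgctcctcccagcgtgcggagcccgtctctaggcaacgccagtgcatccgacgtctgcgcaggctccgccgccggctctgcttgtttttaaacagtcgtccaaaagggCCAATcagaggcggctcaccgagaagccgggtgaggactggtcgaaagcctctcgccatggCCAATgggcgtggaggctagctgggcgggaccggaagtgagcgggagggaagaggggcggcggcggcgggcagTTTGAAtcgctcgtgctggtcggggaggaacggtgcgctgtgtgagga

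Mki67 had 3 CCAAT matches beginning 188, 166 and 141 bases before the annotated start, followed by 2 TTTGAA matches at 116 and 98 bases before it. In Espl1 a single CCAAT match lay 44 bases and a single TTTGAA match 27 bases upstream. Aspm had CCAAT matches at 113, 88 and 12 bases before the start and TTTGAA 6 bases after it, and Cenpf had them at 132 and 71 bases before the start and TTTGAA 2 bases after it. In each of the 4 the CHR letters thus followed CCAAT in the direction of transcription. Over all member windows the 82 CCAAT matches had a median position of -72 bases and the 47 TTTGAA matches one of -15 bases from the start, and 35 of the latter lay between 100 bases upstream and 50 downstream. The first 30 bases after the start were found in an annotated transcript of the gene for 35 of the 52 windows, among them those of Espl1, Aspm, Cenpf, Bub3 and Pttg1 but not that of Mki67.

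**Figure D2:**
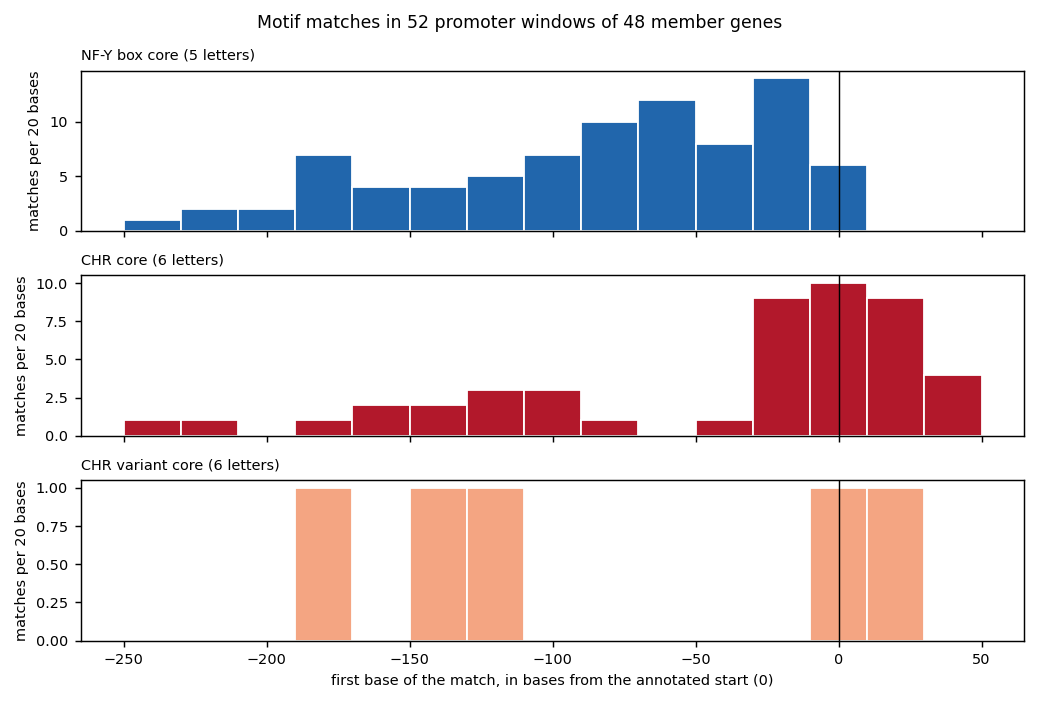
Positions of the CCAAT (NF-Y box), CHR and CHR variant letters in the 52 promoter windows of 48 members. The horizontal axis gives the first base of a match in bases from the annotated start and the vertical axis the matches per 20 bases. CHR matches gather around the start (median -15) and CCAAT matches lie further upstream (median -72).

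For comparison, Bub3 (chr7:131560120-131560419, plus strand) and Pttg1 (chr11:43425932-43426231, minus strand) are shown in the same way. They were chosen after their values were seen, as the called member with the smallest fall and the member that was not called.
Bub3: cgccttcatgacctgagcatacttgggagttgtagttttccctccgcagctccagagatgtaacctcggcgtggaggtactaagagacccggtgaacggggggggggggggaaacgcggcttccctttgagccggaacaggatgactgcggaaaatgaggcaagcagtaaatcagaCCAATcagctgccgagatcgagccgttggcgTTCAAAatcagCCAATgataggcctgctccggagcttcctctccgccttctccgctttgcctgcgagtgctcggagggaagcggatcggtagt
Pttg1: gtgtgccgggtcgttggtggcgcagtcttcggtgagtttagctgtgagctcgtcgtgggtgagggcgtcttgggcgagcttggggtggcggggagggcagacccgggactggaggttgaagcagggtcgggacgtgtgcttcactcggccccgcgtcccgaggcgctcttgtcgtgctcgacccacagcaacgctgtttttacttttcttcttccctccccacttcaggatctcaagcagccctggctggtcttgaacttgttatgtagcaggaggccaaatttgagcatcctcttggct

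The Bub3 window held CCAAT at 2 places with TTCAAA between them, whereas none of the searched letters stood in the Pttg1 window. Absence of the letters from this window says nothing of the rest of the gene. The median log2 fold change was -0.69 for the 31 members with both kinds of match, -0.70 for the 9 with 1 kind and -0.66 for the 8 with a window but no match. By CHR alone, it was -0.70 for 36 members with the letters and -0.63 for 12 without. These differences were not tested.

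The cyclin and Cdk1 engine fell as a whole, with 6 of 6 members called lower and a median of -0.65. Cdk1, the kinase that drives entry into mitosis, was at 1551, 1593 and 1691 normalized counts in vehicle and at 1158, 1195 and 1098 with 4-OHT, so the groups did not overlap (log2 fold change -0.49, SE 0.057, limma-trend adjusted p = 8.9e-07). Ccnb1, which encodes its main mitotic partner cyclin B1, was at 2287, 2281 and 2540 in vehicle and at 1733, 1563 and 1400 with 4-OHT (-0.60, SE 0.067, adjusted p = 4.6e-07). The largest fall of the group was that of Cdc25c, a phosphatase that removes inhibitory phosphates from Cdk1. It had 273, 262 and 312 normalized counts in vehicle and 183, 150 and 114 with 4-OHT, 52.7% of the vehicle mean, and its 4-OHT values differed more among themselves, relative to their mean, than those of the other cyclin and Cdk1 genes. With an SE of 0.143 it also had the widest error of all members (log2 fold change -0.94, adjusted p = 2.2e-05). Cdc25b, a related phosphatase, fell least, from 1153, 1230 and 1215 to 921, 869 and 796 (-0.48, adjusted p = 4.8e-06). Ccna2, for cyclin A2, had a log2 fold change of -0.73 and Ccnb2, for cyclin B2, one of -0.69.

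The transcription factors of the set, Foxm1 and Mybl2, also fell. Foxm1, a forkhead factor that activates G2/M genes, was at 1059, 1110 and 1144 in vehicle and at 703, 534 and 568 with 4-OHT (-0.89, SE 0.083, adjusted p = 5e-08). Its value in 4-OHT replicate 1 lay above the other two but far below every vehicle value. Mybl2, which encodes the MuvB partner B-Myb, went from 1779, 1873 and 1797 to 1254, 1026 and 1061 (-0.71, SE 0.066, adjusted p = 4.9e-08), again with 4-OHT replicate 1 the highest of its group.

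The mitotic kinases fell in 5 of 5 cases, with a median of -0.59. Plk1, which acts at centrosomes, kinetochores and the midzone, was at 1960, 2026 and 2197 in vehicle and at 1435, 1298 and 1361 with 4-OHT (-0.59, SE 0.057, adjusted p = 7.4e-08). Bub1, a checkpoint kinase, fell most, from 796, 816 and 840 to 476, 481 and 461 (-0.79, SE 0.068, adjusted p = 1.7e-08), and its 3 values were close together in either group. Ttk, which encodes the checkpoint kinase Mps1, fell least, from 442, 497 and 554 to 361, 294 and 364 (-0.55, adjusted p = 0.00016). Aurka, the spindle pole kinase, was at -0.63 and Nek2, a centrosomal kinase, at -0.56 on the log2 scale.

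The chromosomal passenger complex corrects faulty kinetochore attachments and later acts at the midzone. Its kinase Aurkb went from 1761, 1718 and 1694 to 996, 1028 and 993 normalized counts (-0.78, SE 0.053, adjusted p = 8.3e-10). Incenp, the scaffold, went from 2819, 3199 and 3213 to 1881, 1727 and 1822 (-0.76, adjusted p = 2.1e-09). Birc5, which encodes survivin, went from 1398, 1334 and 1357 to 980, 857 and 951 (-0.55, adjusted p = 4.5e-07). All 3 thus fell with no overlap between the groups, as did 57 of the 58 members and 25.3% of all tested rows.

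Of the 7 checkpoint and anaphase genes 6 fell, and the log2 fold changes ranged from -0.97 to 0.15, more widely than in any other role group. Espl1, the gene of separase, was at 1260, 1145 and 1263 normalized counts in vehicle and at 670, 561 and 641 with 4-OHT, 51% of the vehicle mean (-0.97, SE 0.072, limma-trend adjusted p = 2.2e-09). Pttg1 encodes securin, which holds separase inactive, and it was at 227, 241 and 201 in vehicle and at 257, 260 and 225 with 4-OHT. These groups overlapped, and the difference was within the error (log2 fold change 0.15, SE 0.110, 95% interval -0.08 to 0.38, adjusted p = 0.28). The interval lies above the median of the members. Over the 16 alternatives Pttg1 stayed between 0.08 and 0.22 with adjusted p between 0.15 and 0.63.

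Bub3, a checkpoint protein that recruits Bub1 and BubR1 to kinetochores, kept 91.4% of its vehicle level. It was at 2547, 2665 and 2747 in vehicle and at 2488, 2326 and 2460 with 4-OHT (-0.13, SE 0.049, adjusted p = 0.039). The call was lost in 7 of the 16 alternatives, with adjusted p of 0.11 and 0.13 without vehicle replicates 2 and 3, 0.13 and 0.066 without 4-OHT replicates 2 and 3 in turn, and 0.32 without both of these. Bub1b, the gene of BubR1, had a log2 fold change of -0.79. Cdc20, the activator of the anaphase-promoting complex that the checkpoint holds back, was at -0.58, and Ube2c, its ubiquitin-conjugating enzyme, at 69.5% of the vehicle mean. Mad2l1, the gene of the checkpoint protein Mad2, was at -0.47.

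**Figure D3:**
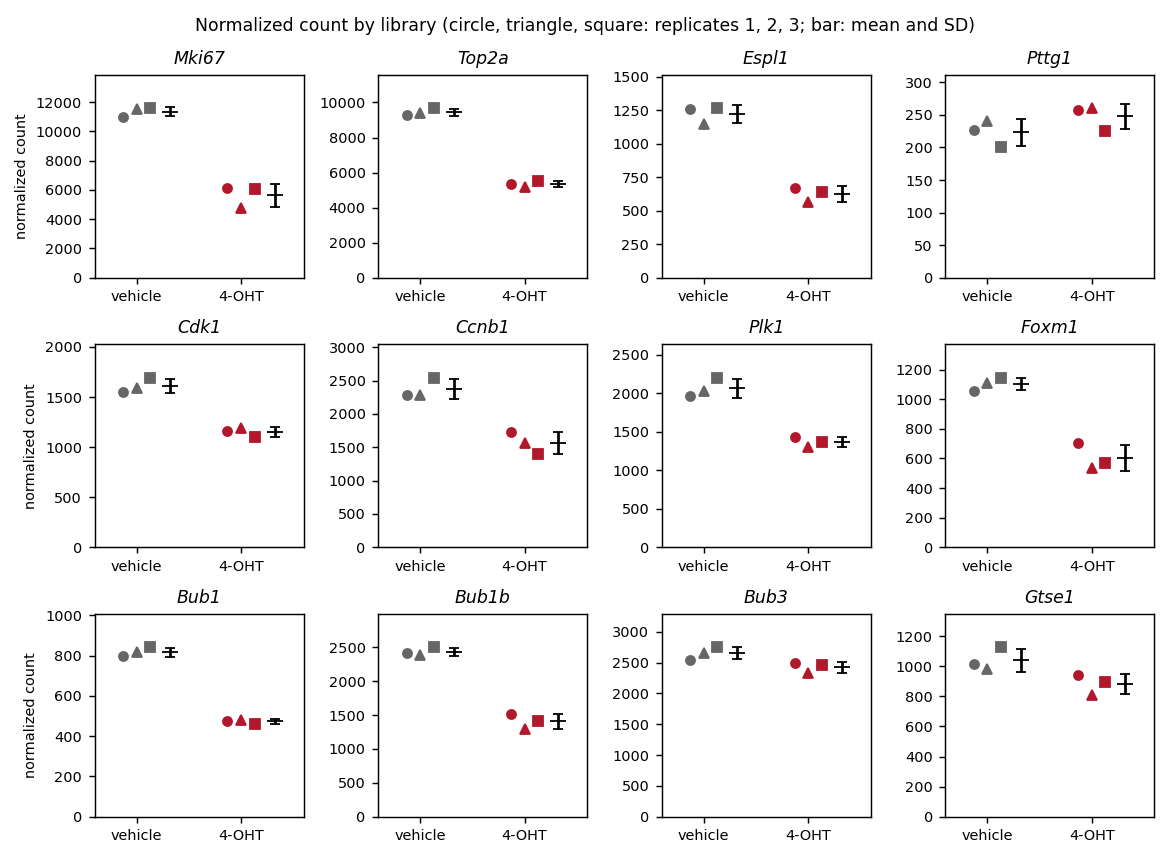
Normalized counts (vertical axes, from 0) of 12 members in the vehicle (grey) and 4-OHT (red) libraries, with circle, triangle and square for replicates 1, 2 and 3 and bars for mean and standard deviation. The groups lie apart for every gene shown except Pttg1, at 201 to 241 in vehicle and 225 to 260 with 4-OHT, and the gap is small for Bub3 and Gtse1.

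At kinetochores and centromeres 7 of 7 members fell, with a median of -0.70. Cenpf, a large protein of the outer kinetochore, fell most, from 1939, 2112 and 2082 to 1229, 971 and 1038 normalized counts (-0.93, SE 0.070, adjusted p = 3.4e-09). Spc25 fell least, from 490, 477 and 465 to 329, 321 and 355 (-0.51, SE 0.082, adjusted p = 4.3e-05). The proteins of Spc24, Spc25, Ndc80 and Nuf2 form 1 complex that binds microtubules, and their genes were at -0.84, -0.51, -0.62 and -0.65 on the log2 scale. Cenpa, the centromeric histone variant, was at -0.70 and Cenpe, a kinesin of the kinetochore, at -0.78.

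All 10 kinesin genes fell, with a median of -0.71. Kif14, a kinesin of the midzone and cytokinesis, had the largest change, from 553, 487 and 533 to 281, 283 and 321 (-0.83, SE 0.088, adjusted p = 2.7e-07). Kif23, the motor of centralspindlin, had the smallest, from 2727, 2710 and 2936 to 2186, 1980 and 1933 (-0.46, SE 0.055, adjusted p = 1.1e-06). Kif11, which pushes the spindle poles apart, was at -0.79, and Kif15, which can share that task, at -0.82. The other kinesins, Kif18a, Kif18b, Kif20a, Kif20b, Kif2c and Kif4, lay between -0.79 and -0.55. Kif18a had few counts, with vehicle values of 192, 198 and 240, and its SE was 0.127.

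Among the spindle factors 6 of 6 fell, with a wide range. Aspm, a spindle pole protein, went from 963, 989 and 989 to 570, 459 and 515 (-0.93, SE 0.076, adjusted p = 7.9e-09). Gtse1, a microtubule-associated protein of G2 and S phase, fell least, from 1017, 979 and 1125 to 942, 807 and 897, and stayed at 84.8% of vehicle (-0.24, SE 0.070, adjusted p = 0.0093). Its groups lay apart by a small margin, and adjusted p rose to 0.063 without vehicle replicate 3, to 0.058 without 4-OHT replicate 2 and to 0.28 without 4-OHT replicates 2 and 3. Hmmr, a spindle adaptor, was at -0.81, Tpx2, which activates Aurora A, at -0.62, Prc1, which bundles midzone microtubules, at -0.60, and Ckap2 at -0.53.

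The 4 cytokinesis genes fell by similar amounts. Cit, the gene of citron kinase, went from 865, 833 and 841 to 533, 481 and 500 (-0.75, SE 0.069, adjusted p = 4e-08). Ect2, the exchange factor that switches on RhoA at the cleavage plane, went from 2577, 2616 and 2672 to 1808, 1524 and 1796 (-0.62, SE 0.060, adjusted p = 7.4e-08). Anln, the actin-binding anillin, and Racgap1, the partner of Kif23, lay between them at 61.7% and 61.8% of the vehicle mean.

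Condensin subunits moved within a narrow range, from -0.81 to -0.67. Ncapd2 went from 3922, 3960 and 4010 to 2447, 2107 and 2224 (-0.81, SE 0.053, adjusted p = 3.8e-10). Ncaph went from 1500, 1429 and 1510 to 965, 871 and 949 (-0.67, SE 0.059, adjusted p = 2.1e-08). The core subunits Smc2 and Smc4 were each at -0.70 and Ncapg at -0.69.

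The last 3 members are proteins of the chromosome surface, the chromatin axis and the nuclear lamina. Mki67, whose protein Ki-67 coats mitotic chromosomes and marks dividing cells, was at 10996, 11500 and 11575 in vehicle and at 6140, 4737 and 6032 with 4-OHT. Its fall was the largest of the set (-1.02, SE 0.069, adjusted p = 6.5e-10), and 4-OHT replicate 2 was lower than the other two. Top2a, the topoisomerase that untangles sister DNA, went from 9263, 9408 and 9661 to 5348, 5173 and 5503 (-0.82, SE 0.043), with the smallest error of all members. Lmnb1, the gene of lamin B1, went from 4677, 4540 and 5003 to 3469, 3576 and 3837 (-0.39, SE 0.050, adjusted p = 3.4e-06).

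Whether members fell by unequal amounts was tested after subtracting from every library its own member median, which had shifted by -0.64 between the groups. On this scale 11 members were called below the median member and 6 above it. The background on the same scale was 1.34% of tested rows below and 80.4% above, since most genes of the table did not share the shift. With so many rows called, adjustment over all rows raises a p-value only slightly. Calls of members near the threshold are therefore little stricter than unadjusted ones. The median is made from the members themselves, so the counts describe spread within the set. Foxm1, Bub1b, Espl1, Spc24, Cenpf, Kif11, Kif15, Aspm, Ncapd2, Mki67 and Top2a lay below, led by Mki67 at -0.38 (adjusted p = 3.9e-05) and Espl1 at -0.33 (adjusted p = 0.00028). Above were Pttg1 at 0.79 (adjusted p = 2e-06), Bub3 at 0.51 (adjusted p = 8.4e-08), Gtse1 at 0.40 (adjusted p = 2.2e-05), Lmnb1 at 0.26 (adjusted p = 0.0012), Kif23 at 0.18 and Mad2l1 at 0.17.

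The genes of separase and securin, which act as a pair, lay on opposite sides of the median member, and both calls held in all 16 alternatives. The number below the median was 5 without vehicle replicate 2 and 7 without vehicle replicate 3, and between 8 and 12 in the other alternatives. Of the 17 members called, Mki67, Espl1 and Aspm remained below and Pttg1, Bub3 and Gtse1 above in all 16. Calls close to the threshold were lost more often, in 9 alternatives for Kif15, 7 for Kif11, 6 each for Bub1b and Spc24 and 3 each for Ncapd2 and Mad2l1. Top2a was lost without vehicle replicate 2 and Kif23 without vehicle replicate 1. Foxm1 was no longer called below it without 4-OHT replicate 3 (-0.20, adjusted p = 0.057) or without 4-OHT replicates 2 and 3 (-0.07, adjusted p = 0.46), and without these 2 libraries neither Cenpf (-0.15, adjusted p = 0.086) nor Lmnb1 (0.13, adjusted p = 0.08) was called.

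**Figure D4:**
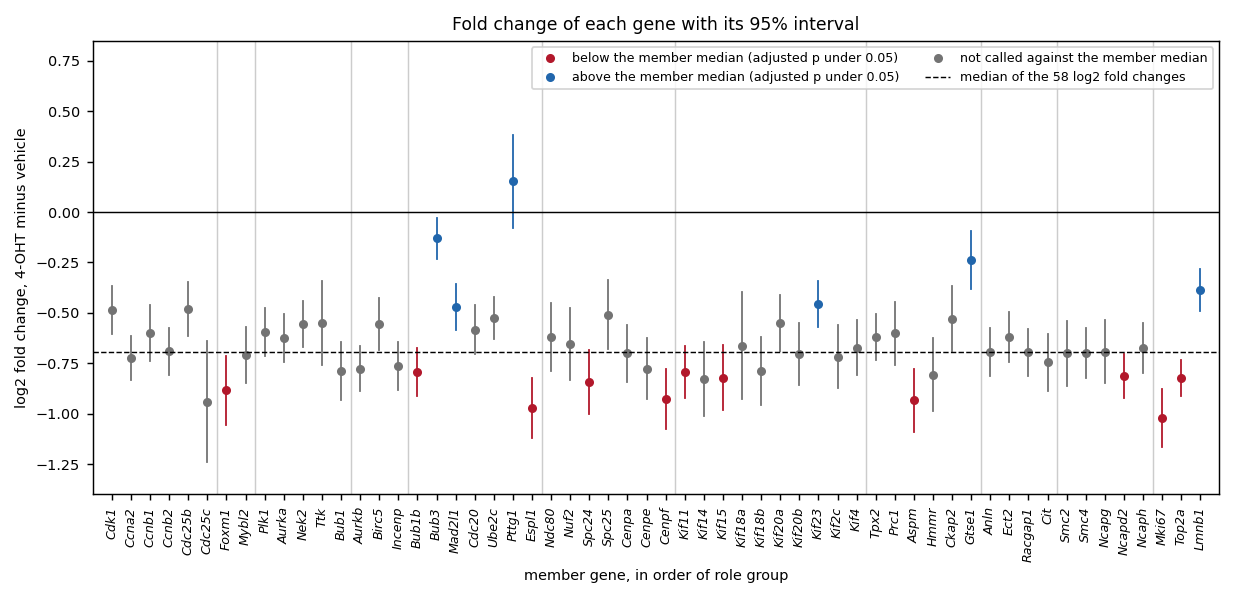
Log2 fold change (4-OHT minus vehicle, vertical axis) of the 58 members in order of role group, with 95% intervals from limma-trend and a dashed line at the members' median. Red points were called below the member median (11), blue points above it (6, with Pttg1 at 0.15 and Bub3 at -0.13 furthest), and grey points neither.

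Across members, the fall was larger for longer transcripts. Spearman's rho between log2 fold change and the length of the longest coding transcript (GENCODE vM21) was -0.44 over 58 genes, which share the same libraries and are not independent. The shorter members, up to the median of 3384 bases, had a median log2 fold change of -0.62 and the longer ones -0.75. Over the 11769 tested rows with a length (89.1% of 13210) rho was -0.13, with medians of 0.04 and -0.03. Among the other cell cycle lists described below it ranged from -0.52 for MuvB and E2F regulators to 0.035 for cohesin. For 70 further mitotic genes it was -0.21. The 3 longest, Cenpf, Mki67 and Aspm, with 11130, 10061 and 9867 bases, had log2 fold changes of -0.93, -1.02 and -0.93, whereas Mad2l1, with 7557 bases, was at -0.47. With mean count the fold change was hardly related (rho 0.06). Whether length had a part in the fold changes was not tested.

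Values of the members also differed more between libraries in the 4-OHT group. The median standard deviation of the log2 values was 0.055 in vehicle and 0.106 with 4-OHT, against 0.086 and 0.096 over all tested rows. The members thus lay below the all-row value in vehicle and close to it with 4-OHT. However, each member had at least 100 reads in every library, whereas tested rows needed only a mean normalized count of 10. Rows of like count were not compared. Of 58 members 45 (77.6%) were more variable with 4-OHT, against 55.8% of all tested rows. The members share the same libraries and are not independent. Their median relative to the vehicle mean differed between the 4-OHT libraries (-0.59, -0.76 and -0.67). These libraries also differed in transcripts of other cell types. The part of either difference in the spread was not tested.

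Other genes of the cell cycle were taken from lists of known function, chosen with earlier results of these data known. They describe how far the fall reached. Of 70 further mitotic genes 65 fell and 2 rose, with a median of -0.64 against -0.69 for the members. Over all tested rows 21% were called lower and 22.7% higher. The largest falls were those of Cenpm (-1.07), a subunit of the inner kinetochore, Kntc1 (-1.02), the Rod protein of the outer kinetochore, and Parpbp (-1.02). Zwint, which links the outer kinetochore to the Rod complex, rose from 2142, 2000 and 2167 to 2964, 3297 and 3004 normalized counts (0.55, SE 0.053, adjusted p = 6.7e-08). Psrc1, a spindle protein, rose from 491, 494 and 521 to 641, 640 and 554 (0.28, adjusted p = 0.0057). Mis12 (-0.15, adjusted p = 0.088), Cenpc1 (-0.10, adjusted p = 0.3) and Cenpt (-0.06, adjusted p = 0.57) were not called. Of 10 centriole duplication genes 7 fell and 1 rose, with a median of -0.60, led by Cep192 (-0.77), Cep152 (-0.72) and Plk4 (-0.70).

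DNA replication and G1/S genes fell almost without exception, in 47 of 48 cases with a median of -0.62. Among all tested rows 21% were called lower and 22.7% higher. Cdc7 (-1.003), the kinase that fires replication origins, Pole (-0.90), the leading-strand polymerase, and Mcm10 (-0.86) fell most. Gins4 was not called (-0.16, adjusted p = 0.074), and 0 of the 48 were higher in limma-trend, in edgeR, in DESeq2 or at an unadjusted p under 0.05. Their promoter windows held CCAAT in 57.8%, a CHR or its variant in 20% and both in 11.1%, compared with 75%, 75% and 65.4% for the members. The windows of the other mitotic genes lay between, at 63.2%, 60.3% and 39.7%.

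The counts for other machines of mitosis are set beside the 21% lower and 22.7% higher of all tested rows. Of the 15 subunits and activators of the anaphase-promoting complex 3 fell and 3 rose, a share close to that background, with a median of -0.05 that became 0.03 without vehicle replicate 3 or without 4-OHT replicate 1. Anapc5 (-0.39), Anapc1 (-0.31) and Anapc10 (0.32) changed most. Of 12 cohesin genes 7 fell and 1 rose, with a median of -0.20. The cohesin acetyltransferases went in opposite directions, Esco2, which acts in S phase, at -0.87 and Esco1 at 0.38, and Pds5b was at -0.51. Among MuvB subunits, pocket proteins, E2F and NF-Y factors 12 of 22 fell and 0 rose (0 also at an unadjusted p under 0.05 and in edgeR and DESeq2), with a median of -0.23. E2f8 (-1.01), E2f7 (-0.72) and E2f1 (-0.64) fell most.

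Among genes that restrain the G2/M transition, calls went in both directions. Of 10 tested genes (of 11 listed) 5 rose and 4 fell, where 22.7% and 21% of all tested rows did, with a median of 0.06 that became -0.03 without vehicle replicate 3 and -0.04 without 4-OHT replicates 2 and 3. Cdkn1a, the gene of the Cdk inhibitor p21, was at 4904, 4712 and 4244 normalized counts in vehicle and at 6804, 7631 and 6964 with 4-OHT (0.63, SE 0.055, adjusted p = 2e-08), so that the groups lay apart in the direction opposite to that of Cdk1. Btg2, an antiproliferative p53 target, rose most (0.81, SE 0.053, adjusted p = 4.6e-10). Chek1 (-0.79) and Pkmyt1 (-0.72), a checkpoint kinase and a kinase that inhibits Cdk1, fell. In the 10 promoter windows of these genes no CHR letters, in either form, were found, while CCAAT stood in 60%. Over the windows of all tested rows the shares were 14% for the CHR letters and 37.9% for CCAAT. With so few windows no difference was tested.

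**Figure D5:**
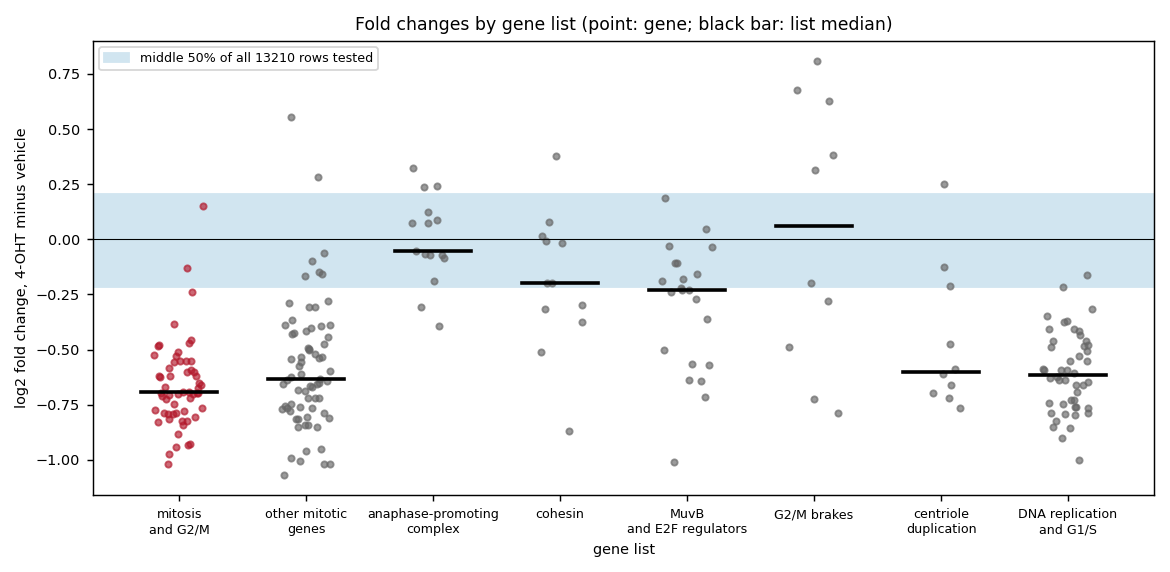
Log2 fold change (4-OHT minus vehicle, vertical axis) of each tested gene in the 58 members (red) and 7 other lists (grey), with a black bar at each list's median and a band for the middle 50% of all 13210 rows tested. The members (-0.69), other mitotic genes (-0.64), centriole genes (-0.60) and replication genes (-0.62) lie below the band, and the anaphase-promoting complex (-0.05) and G2/M brakes (0.06) within it.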

How the data were processed

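RNA was sequenced from 6 libraries of mouse colonic organoids, 3 given vehicle and 3 given 4-OHT, grouped by the treatment in the labels. The authors deposited a signal of normalized read counts per gene, that is, reads divided by 1 size factor per library, neither scaled to a fixed total nor corrected for gene length. STAR, DESeq2 and GRCm39/mm39 are named in the submitters' processing notes, and the annotation is not given in the sources used here. Whole reads could be recovered from these steps for all values (100%, tolerance 0.1 reads) and came to 15804709 to 26957612 a library. They limit precision to counting error at best, and each member had between 100 and 16212 reads in a library.

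Groups were compared by limma-trend on log2(normalized count + 1) (R 4.3.3, limma 3.58.1), two-sided, for the 13210 rows whose mean reached 10. P-values were adjusted after Benjamini and Hochberg, and 0.05 was the threshold. Fold changes are on this scale, and errors are standard errors of the fit. A second fit first subtracted each library's median over the members. Alternatives were pseudocounts of 0.1 and 10, no filter, a mean of at least 50, TMM factors, quantile normalization, a block for replicate number, omission of each single library, omission of both 4-OHT libraries with transcripts of other cell types, and edgeR 4.0.16 and DESeq2 1.42.0 on recovered reads, which called 57 members lower each. Members and lists were chosen with earlier results of these data known, and lists are described by counts and medians. Values in every library are given for the lowest and highest member of each role group, for members of groups of up to 3, for members not called and for Cdk1, Ccnb1, Plk1, Mki67 and Foxm1. From each other list the 3 called genes with the largest fold changes are named, and others named with values were chosen after these were seen. Promoter windows were printed in order of fold change.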

Additional observations from a re-analysis of the deposited data

How the results depend on the processing

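Over 16 alternatives, 55 to 57 members were called lower and 0 higher, and of 928 fold changes of single members 918 kept their direction and their side of the threshold, 10 lost the call (Bub3 in 7 alternatives and Gtse1 in 3) and 0 changed sign. The median of the members ranged from -0.71 to -0.66 with 1 library left out. The number of members below the member median ranged from 5 to 12 in those fits, and that above it from 4 to 8. Of the 272 values against the member median (17 called members), 232 kept the call and 40 lost it, with 0 changes of sign. The median over all rows lay between -0.02 and 0.00 under every scaling. Such scalings centre the bulk of the genes, so this value is no check on them. Without 4-OHT replicates 2 and 3, where the single 4-OHT library is assumed to vary like the vehicle libraries, 3569 rows were called (1858 higher, 1711 lower). The medians without these libraries were -0.59 for the members, -0.56 for the other mitotic genes, -0.003 for the anaphase-promoting complex (1 gene higher), -0.19 for MuvB and E2F regulators, -0.04 for G2/M brakes and -0.53 for replication genes, and 0 centriole genes were called higher. With 1 library left out, 4939 to 5630 rows were called, and the median ranged from -0.089 to 0.032 for the anaphase-promoting complex, from -0.27 to -0.20 for MuvB and E2F regulators (with 0 to 1 genes called higher) and from -0.032 to 0.123 for the G2/M brakes. The cohesin median was -0.25 under quantile normalization. The causes of these shifts were not tested.

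Deviations from the group means had correlations over rows of -0.01, 0.03 and -0.02 between same-numbered libraries 1, 2 and 3. They were -0.05 to 0.05 for other pairs. With 3 libraries a group, these values cannot show whether same-numbered libraries share a mouse or culture. With the replicate block 56 members were called lower, Bub3 having an adjusted p of 0.06, and 5637 rows in all.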
